A study of Mus musculus with 3 samples.

Results

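Cycling leukocytes are the barcodes of the 3 liver libraries that carried leukocyte transcripts together with transcripts of dividing cells. Members were chosen by measured values: a barcode was taken when Mki67, Top2a, Birc5 and Ube2c together gave at least 3 unique molecular identifiers (UMIs, counts of single captured transcripts), Ptprc and Tyrobp together at least 1, and Stab2 and Ptprb, transcripts of endothelial cells, none. The rule found 198 of 20950 barcodes that passed the quality filter, and 198 of 9012 leukocyte barcodes. They were 137 in the library labelled Gsdmd∆Hep IR, 10 in the library labelled GsdmdFL/FL IR and 51 in the library labelled GsdmdFL/FL Ctrl.

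Gsdmd encodes gasdermin D, a pore-forming protein of pyroptosis. The Gsdmd∆Hep IR library came from irradiated mice whose title names a Gsdmd deletion with the suffix Hep and whose genotype tag reads gsdmd-ko. The GsdmdFL/FL IR library came from irradiated mice with the floxed allele and the GsdmdFL/FL Ctrl library from mice of that genotype labelled Ctrl, both with the genotype tag WT. Irradiation was 30 Gy, and liver was taken after 7 days. The labels give neither the exposed region nor the Cre driver, the ages or the number of animals behind a library. Each group is 1 library, so no test between groups was possible. Every interval below is an exact 95% interval that covers counting error only and leaves out variation between cells and animals.

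The libraries held 8214, 7265 and 7393 barcodes in the order Gsdmd∆Hep IR, GsdmdFL/FL IR and GsdmdFL/FL Ctrl, with 78694038, 59228905 and 52858425 UMIs. The targeted gene was read first. Gsdmd stood at 43.1 CPM (the UMIs of the gene relative to all UMIs of the set of cells, on the usual CPM scale) in leukocytes outside the rule of the Gsdmd∆Hep IR library, at 6.06 CPM in those of the GsdmdFL/FL IR library and at 43.2 CPM in those of the GsdmdFL/FL Ctrl library. In cycling leukocytes Gsdmd gave 90, 1 and 22 UMIs in the same order. These are 3′-end counts and the labels do not name the deleted exons, so Gsdmd UMIs in the library labelled Gsdmd∆Hep IR need not show the deletion. The low Gsdmd of the library labelled GsdmdFL/FL IR goes against its genotype tag, so each library is called by its label and directions below are between libraries so labelled. The libraries shared few barcodes: 32 between Gsdmd∆Hep IR and GsdmdFL/FL IR, 60 between Gsdmd∆Hep IR and GsdmdFL/FL Ctrl, and 10 between GsdmdFL/FL IR and GsdmdFL/FL Ctrl. Only 1 shared barcode was a cycling leukocyte in both of its libraries, with 50 UMIs of the 4 genes among 34662 UMIs in the Gsdmd∆Hep IR library and 4 among 505 in the GsdmdFL/FL Ctrl library. Removing it from the GsdmdFL/FL Ctrl library takes 1 barcode without a lineage from the 51 and changes no lineage count.

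Proliferating cells pass through DNA synthesis (S phase), a gap (G2) and mitosis (M), and a different set of genes is read in each. Mki67 encodes the chromosome surfactant Ki-67, Top2a a topoisomerase that untangles sister chromatids, Birc5 the survivin subunit of the chromosomal passenger complex, and Ube2c the ubiquitin-conjugating enzyme of the anaphase-promoting complex. All 4 peak in G2 and mitosis, so cells early in S phase can miss the threshold. In the liver, Kupffer cells, the resident macrophages, renew by local division, whereas most neutrophils and monocytes are made in bone marrow and arrive after their last divisions. Lymphocytes divide after activation.

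Promoters of late cell cycle genes often hold a CHR element, read by the DREAM and MuvB complexes, and CCAAT boxes, read by NF-Y. The 250 bases before the start of each of the 4 genes are printed below, since these genes chose every cell described here (RefSeq, GRCm38.p6, each 5′ to 3′ on the strand of the gene). Capitals mark a CHR match (TTTGAA or TTCGAA) or a CCAAT match on either strand, so TTCAAA and ATTGG also appear. Mki67 lies at chr7:135716380-135716629 (minus strand), Top2a at chr11:99024190-99024439 (minus strand), Birc5 at chr11:117848987-117849236 (plus strand) and Ube2c at chr2:164769679-164769928 (plus strand).
Mki67: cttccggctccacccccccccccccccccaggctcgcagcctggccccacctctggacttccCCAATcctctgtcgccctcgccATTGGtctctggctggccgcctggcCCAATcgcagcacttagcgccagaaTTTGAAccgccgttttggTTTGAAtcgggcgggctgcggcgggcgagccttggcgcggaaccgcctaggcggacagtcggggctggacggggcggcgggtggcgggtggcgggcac
Top2a: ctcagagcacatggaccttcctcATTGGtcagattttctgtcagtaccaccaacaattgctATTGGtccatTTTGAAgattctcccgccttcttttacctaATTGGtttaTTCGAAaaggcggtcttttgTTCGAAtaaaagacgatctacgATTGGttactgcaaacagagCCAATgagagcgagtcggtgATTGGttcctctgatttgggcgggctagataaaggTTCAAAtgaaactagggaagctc
Birc5: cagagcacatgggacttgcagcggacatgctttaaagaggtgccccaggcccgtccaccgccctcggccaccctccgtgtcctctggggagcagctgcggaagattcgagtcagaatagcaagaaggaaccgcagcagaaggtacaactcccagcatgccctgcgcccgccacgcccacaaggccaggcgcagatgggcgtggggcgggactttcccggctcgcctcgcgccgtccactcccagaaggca
Ube2c: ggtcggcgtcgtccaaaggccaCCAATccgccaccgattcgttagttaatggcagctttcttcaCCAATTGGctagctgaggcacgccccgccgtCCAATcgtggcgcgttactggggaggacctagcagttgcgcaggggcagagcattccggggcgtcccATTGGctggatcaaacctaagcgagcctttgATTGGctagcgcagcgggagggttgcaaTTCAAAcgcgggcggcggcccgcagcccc
Mki67 held 2 CHR and 3 CCAAT matches, Top2a 4 and 6, and Ube2c 1 and 6, of which a pair overlap on opposite strands. The Birc5 window held neither. Of 32851 RefSeq promoter windows of this length, 17.1% held a CHR match, 33.8% a CCAAT match and 6.02% both, so the matches are a description of these windows.

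The share of leukocytes that passed the rule differed widely between libraries. It was 4.30% (3.62 to 5.06) of 3185 leukocyte barcodes in the library labelled Gsdmd∆Hep IR, 0.333% (0.160 to 0.612) of 3000 in that labelled GsdmdFL/FL IR and 1.804% (1.35 to 2.37) of 2827 in that labelled GsdmdFL/FL Ctrl. The intervals do not overlap. Depth differed too: leukocytes outside the rule had a median of 12806, 9609 and 4511 UMIs in these libraries, and cycling leukocytes 16655, 14389 and 12831. With each barcode thinned to 5000 UMIs, which 2814 of 3185, 2654 of 3000 and 1194 of 2827 leukocytes were deep enough for, the share was 1.599%, 0.151% and 2.51%. Thinned to 2000 UMIs with at least 1 UMI required, it was 4.98% (4.24 to 5.81), 1.11% (0.761 to 1.56) and 3.55% (2.89 to 4.32). The order of the libraries labelled Gsdmd∆Hep IR and GsdmdFL/FL Ctrl thus depended on the depth and threshold chosen, while the library labelled GsdmdFL/FL IR was lowest at both. The depth of 5000 UMIs also left out 897 of 1118 B-like and 221 of 240 granulocytic-like barcodes of the GsdmdFL/FL Ctrl library, so it altered the mix of cells as well. At 2000 UMIs, B-like barcodes gave 24 of the 97 that passed in that library.

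The libraries also differed in how far members passed the threshold. In the Gsdmd∆Hep IR library the 4 genes gave a median of 4 and a highest value of 100 UMIs per member, in the GsdmdFL/FL IR library 3.5 and 90, and in the GsdmdFL/FL Ctrl library 15 and 148. Members with 8 or more UMIs were 43 of 137, 3 of 10 and 31 of 51. At the threshold itself, 47, 5 and 10 members had exactly 3 UMIs, and 109, 22 and 30 leukocytes had 2 and were left out.

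The label was checked with genes the rule did not use: 40 further genes of G2 and mitosis (the G2/M list) and 39 of S phase, as UMIs per 10000 UMIs of the barcode. Median G2/M levels were 6.01 in members and 1.16 in other leukocytes of the Gsdmd∆Hep IR library, 4.81 and 1.12 in the GsdmdFL/FL IR library, and 41.1 and 2.70 in the GsdmdFL/FL Ctrl library. A G2/M or S level of at least 20, a mark set after the values were seen, was reached by 34 of 137 members of the Gsdmd∆Hep IR library, 4 of 10 of the GsdmdFL/FL IR library and 36 of 51 of the GsdmdFL/FL Ctrl library. Outside the rule it was reached by 0.853%, 0.870% and 3.46% of leukocytes. A shallow barcode reaches that level with fewer UMIs, and these leukocytes had a median of 12806, 9609 and 4511 UMIs. The other cell cycle genes thus bear out the name for most members of the GsdmdFL/FL Ctrl library but for a minority of those of the Gsdmd∆Hep IR library, where many barcodes passed with few molecules.

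**Figure D1:**
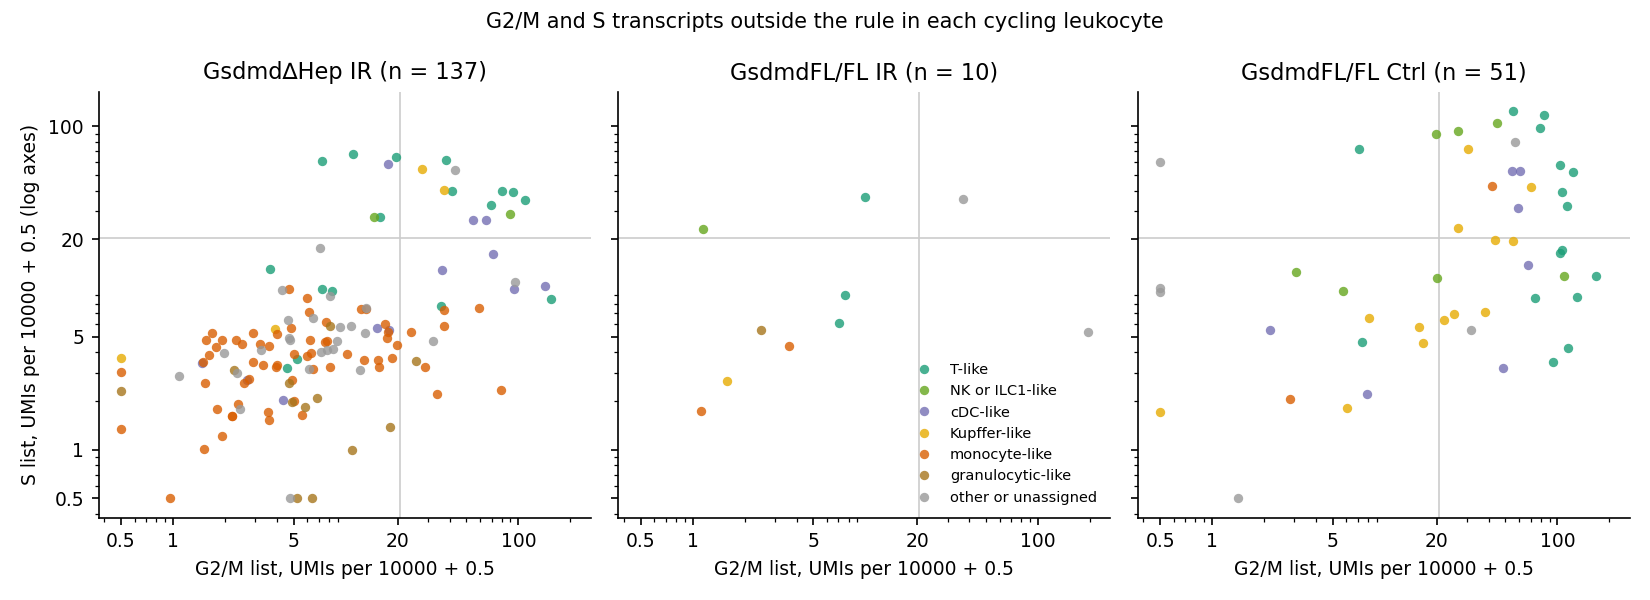
Level of the G2/M list (horizontal) and the S list (vertical) in each cycling leukocyte, in UMIs per 10000 UMIs plus 0.5 on log axes, 1 point per barcode and 1 panel per library, coloured by lineage, with grey lines at a level of 20. In the Gsdmd∆Hep IR panel most monocyte-like points lie below both lines, and in the GsdmdFL/FL Ctrl panel 36 of 51 points lie above at least 1 of them.

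Lineages were read from marker lists that hold no cell cycle gene, and a barcode whose leading list was not clearly ahead stayed unassigned. The mix of lineages differed between libraries. Of the 137 members of the Gsdmd∆Hep IR library, 64 were monocyte-like, 17 T-like, 12 conventional dendritic cell (cDC)-like, 12 granulocytic-like, 4 Kupffer-like, 2 NK or ILC1-like and 1 cholangiocyte-like, and 25 were unassigned. Of those 25, 20 lay between the monocyte and granulocytic lists. Of the 51 members of the GsdmdFL/FL Ctrl library, 16 were T-like, 13 Kupffer-like, 7 cDC-like, 7 NK or ILC1-like, 2 monocyte-like, 2 B-like, 1 plasmacytoid dendritic cell (pDC)-like and 1 erythroid-like, and 2 were unassigned. Monocyte-like cells were thus 46.7% (38.1 to 55.4) of members in the Gsdmd∆Hep IR library and 3.92% (0.478 to 13.5) in the GsdmdFL/FL Ctrl library, and T-like cells 12.4% (7.40 to 19.1) and 31.4% (19.1 to 45.9).

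The 10 members of the GsdmdFL/FL IR library can be listed whole. The 2 with the most UMIs of the 4 genes, 90 and 64, were both unassigned: the first lay between the T and NK or ILC1 lists, with a G2/M level of 194, and the second between the monocyte and cDC lists, with a G2/M level of 36.1 and an S level of 35.1. The 3 T-like members had 10, 4 and 3 UMIs, and the first had an S level of 36.0. A single NK or ILC1-like member had 3 UMIs, all of Top2a, and an S level of 22.5. The remaining 4 (2 monocyte-like, 1 Kupffer-like and 1 granulocytic-like) had 3 or 4 UMIs and G2/M levels of at most 3.10. That library thus held 4 members with a G2/M or S level of at least 20: 2 unassigned, 1 T-like and 1 NK or ILC1-like. The 2 leading lists of the unassigned member with 64 UMIs, monocyte and cDC, are both myeloid.

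**Figure D2:**
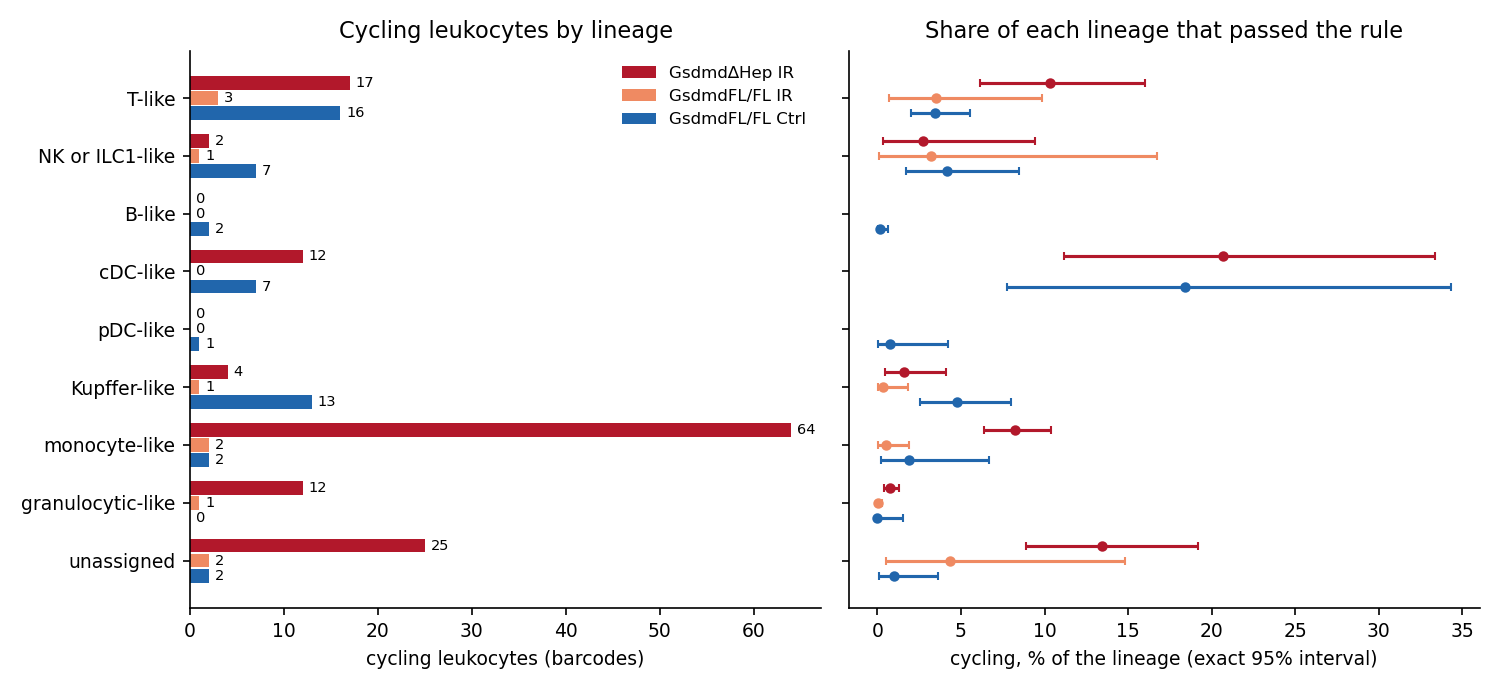
Number of cycling leukocytes by lineage (left) and the share of each lineage that passed the rule (right, with exact 95% intervals, lineages of at least 20 barcodes; the 1 cholangiocyte-like and 1 erythroid-like member are not drawn), with the Gsdmd∆Hep IR, GsdmdFL/FL IR and GsdmdFL/FL Ctrl libraries as separate bars or points. The 64 monocyte-like members of the Gsdmd∆Hep IR library form the longest bar, and cDC-like cells have the highest shares, 20.7% and 18.4%.

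Read as a share of its own lineage, the order changed. Of the lineages with at least 20 barcodes, cDC-like cells, which present antigen to T cells, passed the rule most often: 20.7% (11.2 to 33.4) of 58 in the Gsdmd∆Hep IR library and 18.4% (7.74 to 34.3) of 38 in the GsdmdFL/FL Ctrl library, with overlapping intervals. No leukocyte barcode of the GsdmdFL/FL IR library was cDC-like. T-like cells passed in 10.3% (6.12 to 15.98) of 165, 3.49% (0.725 to 9.86) of 86 and 3.45% (1.98 to 5.54) of 464 barcodes in the libraries labelled Gsdmd∆Hep IR, GsdmdFL/FL IR and GsdmdFL/FL Ctrl. NK or ILC1-like cells passed in 2.70% of 74, 3.23% of 31 and 4.19% of 167, with intervals that overlap throughout. Kupffer-like cells passed in 1.61% (0.441 to 4.08) of 248, 0.337% (0.00852 to 1.86) of 297 and 4.76% (2.56 to 8.01) of 273. Monocyte-like cells passed in 8.22% (6.38 to 10.4) of 779, 0.524% (0.0635 to 1.88) of 382 and 1.89% (0.229 to 6.65) of 106. Granulocytic-like cells passed in 0.733% (0.379 to 1.28) of 1637 and 0.0471% (0.00119 to 0.262) of 2121 in the irradiated libraries. In the GsdmdFL/FL Ctrl library 0 of 240 passed, with an exact interval that reaches up to 1.53%.

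Free RNA was not removed, so a low share can come from a cell that does not divide. The B-like cells of the GsdmdFL/FL Ctrl library, the largest class there and one with few members, gave 2 of 1118 (0.179%) at a median of 4034 UMIs, each with 3 UMIs, all of Top2a, and with no other G2/M transcript. The granulocytic-like share of the GsdmdFL/FL IR library, 0.0471% at a median of 9804 UMIs, lies below that share and is not read as a sign of division. The part of free RNA in either share was not tested. Thinned to 2000 UMIs with at least 1 UMI required, T-like shares were 14.3%, 4.71% and 6.96%, monocyte-like shares 8.62%, 1.84% and 1.90%, and Kupffer-like shares 3.66%, 0.995% and 7.02% in the order Gsdmd∆Hep IR, GsdmdFL/FL IR and GsdmdFL/FL Ctrl. The B-like share of the GsdmdFL/FL Ctrl library was 2.16% (1.39 to 3.20) at that setting. The monocyte-like shares of the GsdmdFL/FL IR and GsdmdFL/FL Ctrl libraries lay below it, as did the Kupffer-like share of the GsdmdFL/FL IR library. Granulocytic-like shares, in the order above, were 1.47% (0.946 to 2.18), 0.710% and 0, also below it. Those shares are not read as a sign of division. Single members can differ from their class: a monocyte-like member of the GsdmdFL/FL Ctrl library had 32 UMIs, with G2/M and S levels of 41.1 and 42.0. The B-like share is that of the GsdmdFL/FL Ctrl library alone, and whether it holds for the other libraries was not tested. Thinned to 5000 UMIs with at least 3 required, T-like shares were 10.9% (5.95 to 17.96), 1.59% (0.0402 to 8.53) and 3.68% (1.98 to 6.22). The T-like intervals of the Gsdmd∆Hep IR and GsdmdFL/FL Ctrl libraries thus overlapped, as they did at 2000 UMIs (9.28 to 20.66 and 4.81 to 9.68). At 5000 UMIs with at least 3 required, Kupffer-like shares were 0.787% (0.0199 to 4.31), 0 and 3.41% (1.26 to 7.27). Monocyte-like shares were 1.57% (0.816 to 2.73), 0 and 1.03% (0.0261 to 5.61). The monocyte-like difference between the Gsdmd∆Hep IR and GsdmdFL/FL Ctrl libraries was therefore not detectable at that threshold and depth.

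**Figure D3:**
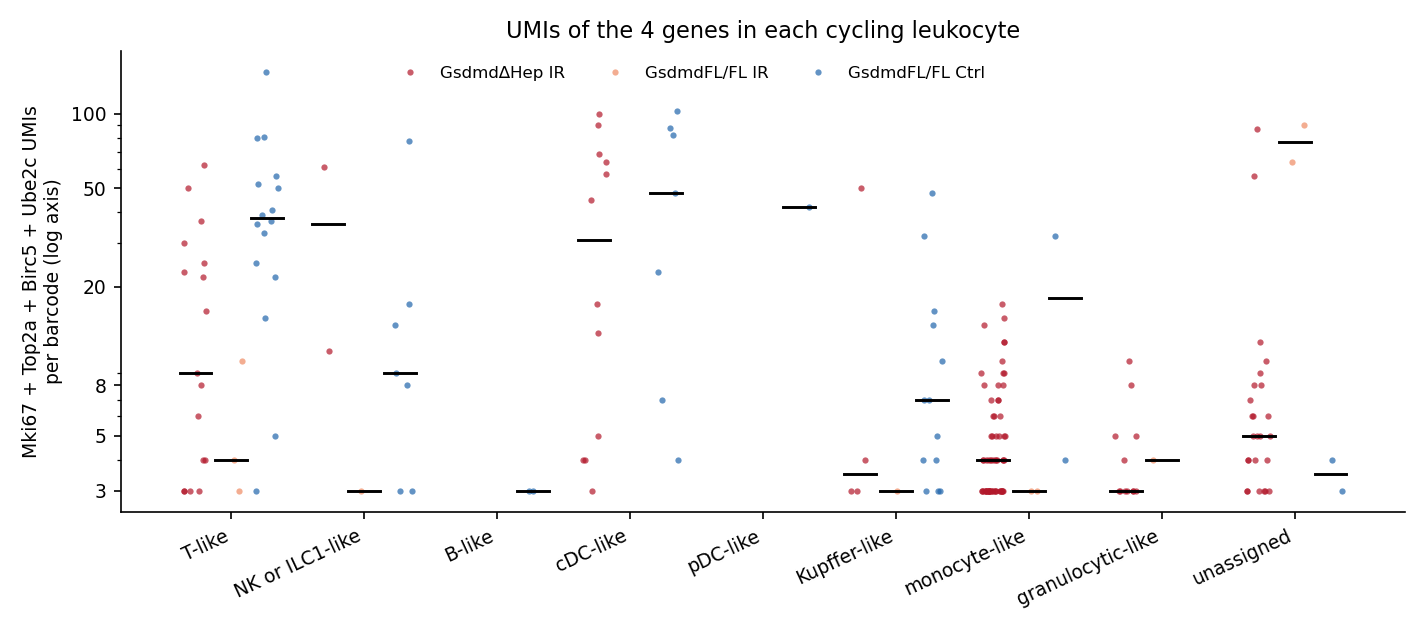
UMIs of Mki67, Top2a, Birc5 and Ube2c together in each cycling leukocyte (log axis), by lineage, with 1 point per barcode, a black bar at the median, and the Gsdmd∆Hep IR, GsdmdFL/FL IR and GsdmdFL/FL Ctrl libraries from left to right within a lineage. The 64 monocyte-like members of the Gsdmd∆Hep IR library reach 17 UMIs at most, whereas T-like and cDC-like members reach 62 and 100 in that library and 148 and 103 in the GsdmdFL/FL Ctrl library.

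The monocyte-like members of the Gsdmd∆Hep IR library were many but held few molecules of the 4 genes. They had 3, 4 and 17 UMIs at the lowest, the median and the highest, and 40 of the 64 had only 3 or 4. Ube2c gave 152 of their 333 UMIs, Mki67 84, Birc5 78 and Top2a 19, whereas in T-like members of the same library Top2a gave 89 of 308. The G2/M level was higher where the rule genes gave more UMIs: its median was 1.35 in monocyte-like barcodes with none, 2.54 in the 40 with 3 or 4, 6.55 in the 12 with 5 to 7 and 18.6 in the 12 with 8 or more. The median S level over the same steps was 3.03, 2.83, 4.19 and 4.61. A G2/M level of at least 20 was reached by 7 of the 64 and an S level of at least 20 by 0 of the 64. Late cell cycle transcripts were thus present at a low level in most of these cells, and S transcripts were near the level of monocyte-like cells outside the rule. Only 2 monocyte-like members each were found in the GsdmdFL/FL IR library (3 UMIs each) and the GsdmdFL/FL Ctrl library (32 and 4 UMIs, the first with G2/M and S levels of 41.1 and 42.0).

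**Figure D4:**
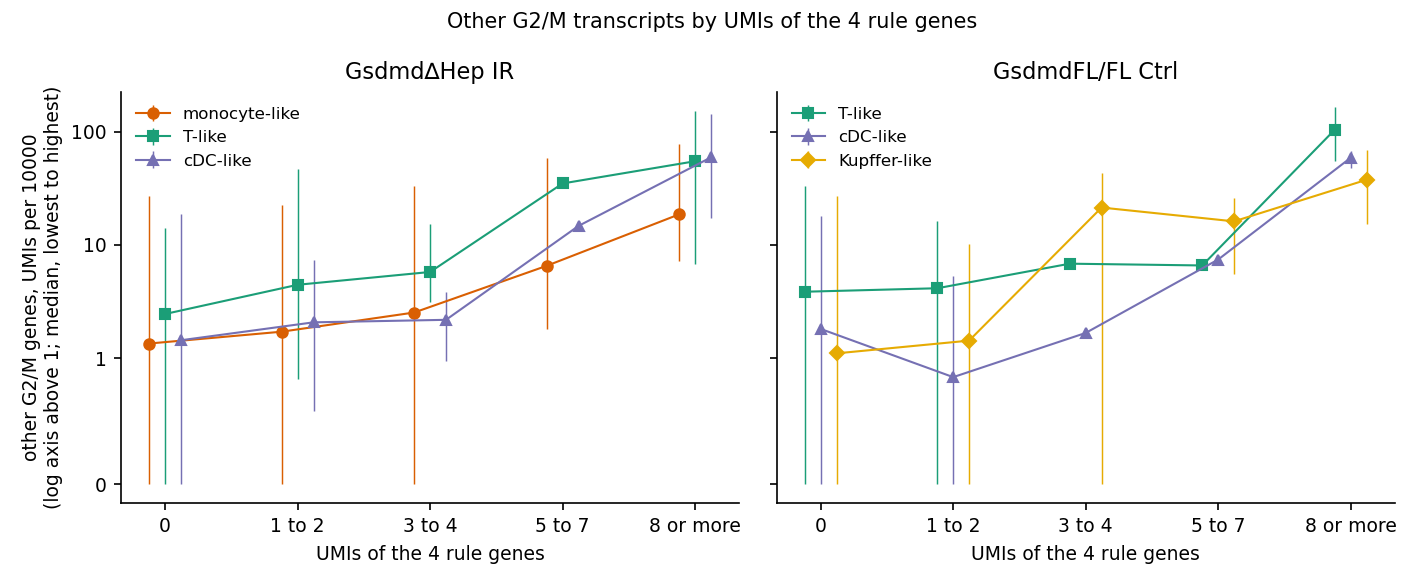
Median level of the G2/M list, which leaves out the 4 rule genes, against the UMIs of the rule genes in a barcode, for lineages of the Gsdmd∆Hep IR library (left) and the GsdmdFL/FL Ctrl library (right), with lines from the lowest to the highest barcode on an axis that is logarithmic above 1. Monocyte-like barcodes climb to a median of 18.6 at 8 or more UMIs, against 54.9 and 104 for T-like barcodes of the Gsdmd∆Hep IR and GsdmdFL/FL Ctrl libraries.

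Within the monocyte-like class of the Gsdmd∆Hep IR library, the 64 members were set against the other 715 barcodes, a description within 1 library in which cell cycle genes follow from the rule. Of 8192 genes with at least 50 UMIs, 145 (1.77%) were at least 2-fold higher in members and 240 (2.93%) at least 2-fold lower, with an interval of the ratio that excludes 1, or 4.7% in all. Ccnb2, a mitotic cyclin, had 113 UMIs in 36 of 64 members and 65 UMIs in 43 of 715 others, 112 against 6.30 CPM, or 17.8-fold (12.97 to 24.5) higher. Cdca8, a subunit of the chromosomal passenger complex, was 13.6-fold higher, Pclaf, a PCNA-binding factor, 10.95-fold, Cdca3 10.6-fold, Cdkn3, a phosphatase, 10.2-fold, and Spc24, a kinetochore subunit, 8.35-fold. Over list genes with at least 10 UMIs, where 2.26% of all genes passed upward and 2.41% downward, 16 of 25 G2/M genes and 6 of 32 S genes were higher.

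Genes of interferon response and antigen presentation were lower in these members. Ccl5, a chemokine, stood at 22.7 CPM in members and 593 CPM in other monocyte-like barcodes, but few barcodes carried it: 4 of 64 members and 95 of 715 others, up to 667 UMIs in 1 of the others. Gbp4, an interferon-inducible GTPase, was found in 1 of 64 members and 89 of 715 others, at 0.989 and 22.5 CPM. Fabp5, a fatty acid carrier, stood at 17.8 and 134 CPM, Lgals3bp, a secreted glycoprotein, at 2.97 and 32.3 CPM, and Batf3, a transcription factor of dendritic cells, at 0.989 and 10.9 CPM. Spon1 was at 0 in members and gave 149 UMIs in the others, at least 4.86-fold lower by a floor of 3 counts over the members. Of 25 interferon-response genes 11 were lower and none higher (median log2 ratio -0.99, against 0.05 over all genes), among them Cxcl9, Oasl2 and Gbp3. Of 8 MHC class II genes 5 were lower (median -1.79), with H2-Ab1 detected in 7 of 64 members and 195 of 715 others. Elane, neutrophil elastase, was higher: 11 of 64 members and 23 of 715 others had a UMI, a log2 ratio of 2.62. Prtn3, another azurophil granule protease, was found in 55 of 64 members and 434 of 715 others. Of 9 azurophil (primary) granule genes 2 were higher, where 2.26% of all genes were, and the list stood at 2543 CPM in members and 2706 CPM in the others. Ly6c2, a marker of classical monocytes that is also in the lineage list, was found in 61 of 64 and 462 of 715, with medians of 16 and 2 UMIs. In the GsdmdFL/FL IR library, 331 of 380 monocyte-like barcodes outside the rule carried Prtn3 and 4 of 380 H2-Ab1. Frequent Prtn3 and scarce H2-Ab1 were thus not particular to members. Csf1r, the receptor of macrophage colony-stimulating factor, was detected in 42 of 64 members and 626 of 715 others, at 128 and 295 CPM. Kit and Cd34, markers of blood progenitors, each gave 1 UMI in the 64 members. Cdkn1a, the p21 cell cycle inhibitor and a p53 target, was detected in 61 of 64 members and 665 of 715 others, at 381 and 391 CPM.

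The 12 granulocytic-like members of the Gsdmd∆Hep IR library had 3 to 10 UMIs of the rule genes, and 1 of them reached a G2/M level of 20. Thinned to 2000 UMIs, 1.47% of their class passed, below the B-like share of 2.16% in the GsdmdFL/FL Ctrl library. That share is not read as a sign of division. Retnlg, a transcript of mature neutrophils, stood at 4215 CPM in them and 19506 CPM in the 1625 other granulocytic-like barcodes, and Camp and Ngp, of the secondary granules, at 12363 and 22696 CPM in members against 4904 and 19014 CPM in the others. Ltf, lactoferrin of the same granules, was lower, at 2564 CPM in members and 3207 CPM in the others. Cxcr2, the chemokine receptor of mature neutrophils, was detected in 11 of 12 members and 1570 of 1625 others.

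The cDC-like members carried many UMIs of the rule genes in both libraries that held them. The 12 of the Gsdmd∆Hep IR library had 3, 31 and 100 UMIs of the rule genes at the lowest, the median and the highest, and the 7 of the GsdmdFL/FL Ctrl library 4, 48 and 103. Xcr1 or Clec9a, markers of the cross-presenting cDC1 subset, were found in 9 of 12 and 6 of 7 members, and in 14 of 46 and 23 of 31 other cDC-like barcodes. Cd209a, a marker of the cDC2 subset, was found in 0 of 12 members and 23 of 46 others of the Gsdmd∆Hep IR library, and in 1 of 7 and 9 of 31 of the GsdmdFL/FL Ctrl library. Flt3, the growth factor receptor of the cDC lineage, was detected in 9 of 12 and 7 of 7 members, and in 31 of 46 and 24 of 31 others. Xcr1, Clec9a, Cd209a and Flt3 are all in the cDC list, so their presence follows in part from the call. Irf8, a transcription factor needed for cDC1, stood at 553 CPM in members of the Gsdmd∆Hep IR library and 1565 CPM in those of the GsdmdFL/FL Ctrl library.

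The 4 Kupffer-like members of the Gsdmd∆Hep IR library had 3, 3, 4 and 50 UMIs of the rule genes, and 2 of the 4 reached a G2/M level of 20. The 13 of the GsdmdFL/FL Ctrl library had 3, 7 and 48 UMIs at the lowest, the median and the highest, and 8 of the 13 reached that level. Clec4f, a lectin of Kupffer cells, was found in 3 of 4 and 12 of 13 members of the Gsdmd∆Hep IR and GsdmdFL/FL Ctrl libraries. Timd4, a receptor for dying cells, was found in 3 of 4 and 9 of 13. Both genes are in the Kupffer list that named these barcodes, so their presence follows in part from the call. Ccr2, the receptor of incoming monocytes, gave 1 UMI in the 4 members of the Gsdmd∆Hep IR library and none in the 13 of the GsdmdFL/FL Ctrl library. It is in the competing monocyte list, so its low count also follows in part from the call. Marco, a scavenger receptor, differed between libraries across the lineage: 3678 CPM in members and 10140 CPM in the other Kupffer-like barcodes of the Gsdmd∆Hep IR library, against 405 and 610 CPM in the GsdmdFL/FL Ctrl library. Of the 317 Marco UMIs in the 4 members of the Gsdmd∆Hep IR library, 256 were in 1 cell and none in another. The 1 Kupffer-like member of the GsdmdFL/FL IR library had 6769 CPM.

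The 2 NK or ILC1-like members of the Gsdmd∆Hep IR library had 11 and 61 UMIs of the rule genes and both had an S level of at least 20. The 7 of the GsdmdFL/FL Ctrl library had 3, 9 and 78 UMIs at the lowest, the median and the highest, and 5 of the 7 had more S than G2/M transcripts. Ncr1, an activating receptor of these cells, was detected in 2 of 2 and 7 of 7 of them.

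T-like members were found in all 3 libraries, with different subset markers. In the Gsdmd∆Hep IR library, 7 of 17 members carried Cd8a or Cd8b1 alone, 6 Cd4 alone, 2 more than 1 kind and 2 none of Cd4, Cd8a, Cd8b1 and Trdc. In the GsdmdFL/FL IR library all 3 carried Cd4 alone. In the GsdmdFL/FL Ctrl library 12 of 16 carried none, 3 Cd4 alone and 1 more than 1 kind. Cd8a or Cd8b1 was found in 8 of 17 members and 34 of 148 other T-like barcodes of the Gsdmd∆Hep IR library, and in 1 of 16 and 188 of 448 of the GsdmdFL/FL Ctrl library. Trac and Trbc2, the constant chains of the alpha-beta T cell receptor and part of the T list, were detected in every T-like member of all 3 libraries. Zbtb16, which encodes PLZF, the transcription factor of mouse NKT cells, was looked at after these values were seen. It was found in 0 of 17 members and 2 of 148 other T-like barcodes of the Gsdmd∆Hep IR library. The counts were 0 of 3 and 4 of 83 in the GsdmdFL/FL IR library, and 9 of 16 and 33 of 448 in the GsdmdFL/FL Ctrl library. Foxp3, the factor of regulatory T cells, was found in 3 of 17, 1 of 3 and 2 of 16 members.

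No lineage had 30 members in more than 1 library, the number set for comparing genes between libraries. The nearest case, 17 T-like members of the Gsdmd∆Hep IR library against 16 of the GsdmdFL/FL Ctrl library, was added after the numbers were known. These libraries differ in genotype label and irradiation together, which cannot be told apart. Their T-like members also differed in subset markers: 2 of 17 and 12 of 16 carried none of Cd4, Cd8a, Cd8b1 and Trdc. The part of subset makeup in the gene differences below was not tested. Of 1380 genes with at least 50 UMIs, 66 (4.78%) were at least 2-fold higher and 187 (13.6%) at least 2-fold lower in the Gsdmd∆Hep IR library, with intervals of the ratio that exclude 1, or 18.3% in all. Scaling by trimmed means of M values (TMM), which moves every log2 ratio up by 0.24, gave 151 and 117.

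Transcripts of G2 and mitosis were lower and those of S phase similar, in members that the rule chose by 4 genes of G2 and mitosis. The G2/M list stood at 3412 CPM in the Gsdmd∆Hep IR library and 9342 CPM in the GsdmdFL/FL Ctrl library, and the S list at 3990 and 4116 CPM. Of 39 G2/M genes with at least 10 UMIs, 31 were at least 2-fold lower and none higher, where 11.7% and 4.15% of all 5301 such genes were. Their median log2 ratio was -1.43, against -0.19 over all genes, and -1.19 with TMM. Of 33 S genes, 2 were higher, Ccne1 and Cdca7, and none lower, with a median of -0.04, which is 0.20 with TMM. Hmmr, a spindle protein, gave 5 UMIs in 4 of 17 cells and 60 UMIs in 12 of 16 cells. Ccnb1, the cyclin of mitotic entry, gave 10 and 53 UMIs, and Cenpf, a kinetochore protein, 28 and 102. Members of the Gsdmd∆Hep IR library also had fewer UMIs of the rule genes themselves, a median of 9 against 38. The G2/M difference is therefore not separate from how far members passed the rule. With at least 5 UMIs required in both libraries the median of the G2/M list was -1.04. In 8 of 17 members of the Gsdmd∆Hep IR library, against 4 of 16 of the GsdmdFL/FL Ctrl library, S transcripts outnumbered G2/M transcripts.

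**Figure D5:**
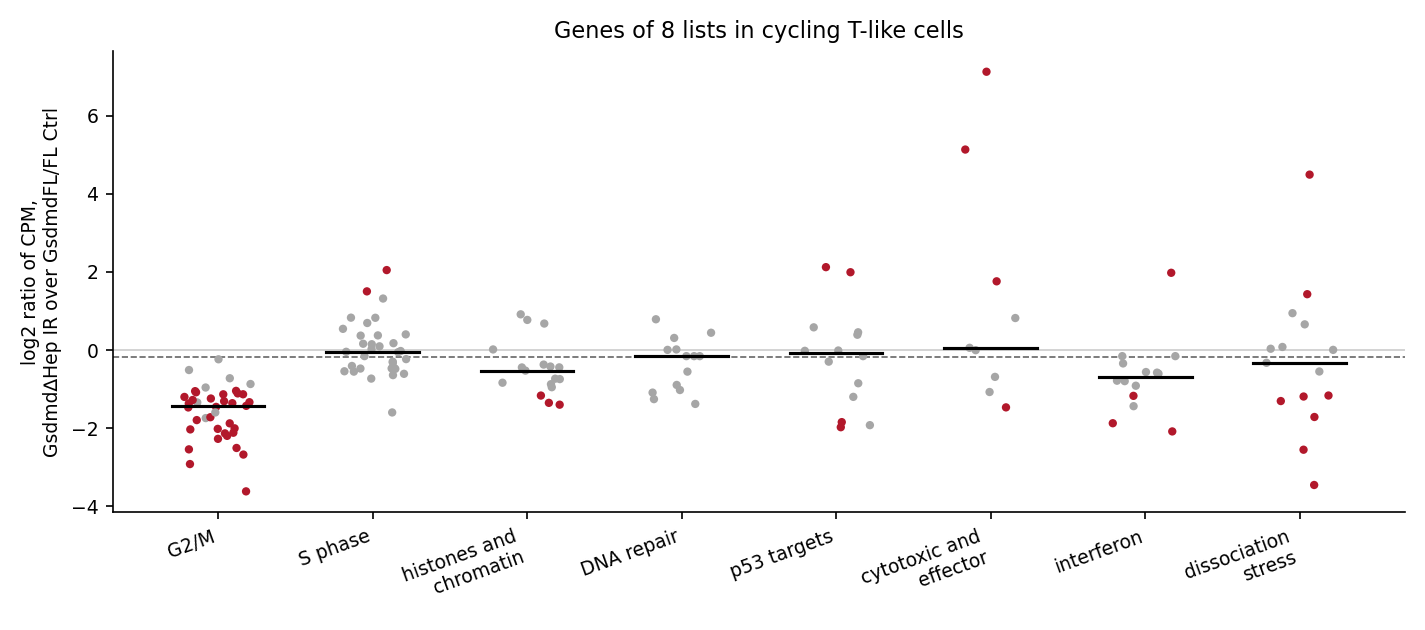
Log2 ratio of CPM in cycling T-like cells, 17 of the Gsdmd∆Hep IR library over 16 of the GsdmdFL/FL Ctrl library, for the genes of 8 lists with at least 10 UMIs, 1 point per gene, red where the ratio is at least 2-fold and its interval excludes 1, with a black bar at the list's median and a dashed line at the median of all genes (-0.19). Of the 39 G2/M genes 31 are red and below 0, and the S genes lie on both sides of it.

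Effector genes differed gene by gene. Gzma, granzyme A, which is also in the NK list, gave 387 UMIs in 4 of 17 cells of the Gsdmd∆Hep IR library, 209 of them in 1 cell, and 2 UMIs in 2 of 16 cells of the GsdmdFL/FL Ctrl library. Gzmb, granzyme B, gave 171 UMIs in 7 cells and 45 UMIs in 9 cells. Cd8b1, a CD8 chain, gave 54 UMIs in 7 cells and 1 UMI in 1 cell. Of 9 cytotoxic and effector genes, 3 were higher (Gzma, Gzmk, Gzmb) and 1 lower (Ifng, interferon gamma, 153 against 427 CPM), where 4.15% and 11.7% of all genes with at least 10 UMIs were. Xcl1, a chemokine for cDC1 cells, was at 0 in the Gsdmd∆Hep IR library and gave 58 UMIs in 10 of 16 cells of the GsdmdFL/FL Ctrl library, at least 21.5-fold lower. Ccl4, another chemokine, stood at 12.1 and 225 CPM, Rbpj, the DNA-binding partner of Notch, at 16.2 and 292 CPM, Egr1, an immediate early gene, at 32.3 and 373 CPM, and Fgl2 at 20.2 and 265 CPM. A single cell of the GsdmdFL/FL Ctrl library held 42 of the 65 Rbpj UMIs there, a single cell 31 of the 50 Ccl4 UMIs and a single cell 31 of the 83 Egr1 UMIs. By cells with a UMI, Rbpj was found in 3 of 17 and 10 of 16 members, Ccl4 in 3 and 6, and Egr1 in 5 and 14. Emb, a membrane glycoprotein, was detected in 17 of 17 and 4 of 16 members (485 and 63.0 CPM), Rasgrp2, a Rap activator, in 14 and 3, and Lgals3, galectin-3, in 13 and 4.

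Part of these differences was also present, and part was not, in T-like barcodes outside the rule. S100a9, a neutrophil transcript, was 11.4-fold higher by CPM in members of the Gsdmd∆Hep IR library. It was found in 17 of 17 of them and in 137 of 148 other T-like barcodes. In the GsdmdFL/FL Ctrl library it was found in 4 of 16 and 72 of 448. By CPM, however, the other T-like barcodes differed little, at 622 CPM in the Gsdmd∆Hep IR library and 545 CPM in the GsdmdFL/FL Ctrl library. A single barcode held 656 of the 1646 S100a9 UMIs behind the latter value. The share of free neutrophil RNA in S100a9 was not tested. Xcl1 was found in 8 of 148 other T-like barcodes of the Gsdmd∆Hep IR library and 139 of 448 of the GsdmdFL/FL Ctrl library. Gzma was not higher outside the rule, with 4 of 148 and 19 of 448 barcodes. In the same barcodes, Emb was found in 136 and 319, Rasgrp2 in 57 and 211, and Lgals3 in 38 and 30.

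Targets of p53, the factor that DNA damage activates, followed another order. Among T-like barcodes outside the rule (148 and 448), 157 of 6404 genes with at least 50 UMIs (2.45%) were higher in the Gsdmd∆Hep IR library and 408 (6.37%) lower, 8.82% in all. There, 7 of 20 measured targets were at least 2-fold higher in the Gsdmd∆Hep IR library than in the GsdmdFL/FL Ctrl library and none lower, where, with at least 10 UMIs, 3.18% and 6.13% of 9862 genes were. Cdkn1a stood there at 112 and 14.6 CPM. In the T-like members, 2 of 14 measured targets were higher (Ddit4, Pmaip1) and 2 lower (Trp53inp1, Ccng1), where 4.15% and 11.7% of 5301 genes were. Cdkn1a stood there at 56.5 CPM in the Gsdmd∆Hep IR library and 40.5 CPM in the GsdmdFL/FL Ctrl library, from 14 and 9 UMIs. Within the Gsdmd∆Hep IR library, 6 of 20 targets were lower in T-like members than in other T-like barcodes and 1 higher, where 5.62% and 10.1% of 7467 genes were. Plk2 and Phlda3 were at 0 in the 17 members and gave 33 and 17 UMIs in the other 148 barcodes. Beside these values, 11 of 16 transcripts of the dissociation stress list were lower in the same members (Jun at 230 CPM against 1075 CPM in the others), and its part in the p53 values was not tested. Within the GsdmdFL/FL Ctrl library, 4 of 20 targets were higher in T-like members and 1 lower, where 12.1% and 3.34% of 9684 genes were.

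T-like members were also set against the other T-like barcodes of their own library. In the Gsdmd∆Hep IR library 373 of 2893 genes with at least 50 UMIs (12.9%) were higher in members and 257 (8.88%) lower, 21.8% in all. In the GsdmdFL/FL Ctrl library 796 of 5903 (13.5%) were higher and 323 (5.47%) lower, 19% in all. All 28 measured G2/M genes were higher in members of the Gsdmd∆Hep IR library and all 38 in those of the GsdmdFL/FL Ctrl library, which follows from the rule. Ccr7, the lymph node homing receptor of naive T cells, was found in 8 of 17 members and 68 of 148 others of the Gsdmd∆Hep IR library, and in 1 of 16 and 252 of 448 of the GsdmdFL/FL Ctrl library. Dapl1 was at 0 in the 16 members of the GsdmdFL/FL Ctrl library and gave 660 UMIs in the other 448, at least 16.2-fold lower.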

How the data were processed

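Per the submitters' processing notes, the authors used Cell Ranger 6.1.1 with the mm10 build, and CASAVA 1.8 and Seurat 4.0.3 are also named. The annotation is not stated there. The deposited matrices, from 10x Chromium 3' libraries per the labels' protocols, hold raw UMI counts per gene and barcode. A barcode was kept from 500 UMIs and 250 genes upward, with up to 25% of UMIs mitochondrial. Scrublet (scanpy 1.11.5, expected rate 6%) marked 291 (3.85%), 235 (3.47%) and 160 (2.42%) barcodes of the Gsdmd∆Hep IR, GsdmdFL/FL IR and GsdmdFL/FL Ctrl libraries, which were kept, 3 members among them.

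Each of 17 marker lists was scored as the mean of log-normalized values (per 10000 UMIs), each scaled to its 99th percentile over leukocytes. A barcode was called X-like with a score of at least 0.2, 1.2 times the next, and 3 detected markers. This scoring was set after values had been seen, and the members and lists were chosen with earlier results of these data known.

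UMIs were summed per set of cells as CPM, and ratios were given exact conditional intervals, with a prior count of 0.5 in log2 ratios. Named genes are the 6 highest and 6 lowest ratios among genes with at least 50 UMIs, with a UMI in at least 10% of cells of a side, list members, and lineage markers, some looked at afterwards. Azu1 and Mx1 were not matched. In Poisson counts simulated with the totals of the T-like comparison (1380 genes), 96.5% of intervals of unchanged genes held 1. Such counts follow the model of the interval and hold no variation between cells. They check the calculation only, not how well the intervals cover real cells. Ratios and intervals used scipy 1.17.1, TMM factors edgeR 4.0.16, and figures matplotlib 3.10.9. The alternatives tried were other thresholds, filters, thinned depths, scalings and prior counts.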

Additional observations from a re-analysis of the deposited data

How the results depend on the processing

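Of 99 alternative values of the shares and counts described, 74 stayed within the spread allowed and 25 moved. With a threshold of 2 UMIs, 7.72%, 1.07% and 2.87% of leukocytes passed in the Gsdmd∆Hep IR, GsdmdFL/FL IR and GsdmdFL/FL Ctrl libraries, with 17.0% of T-like and 16.6% of monocyte-like cells in the first and 8.06% of Kupffer-like cells in the last. With 5 UMIs, 2.10%, 0.1% and 1.27% passed, monocyte-like cells were 35.8% of members of the Gsdmd∆Hep IR library, and 3.08% of them passed. Thinned to 2000 UMIs, 4.98%, 1.11% and 3.55% passed, and the T-like share of the GsdmdFL/FL Ctrl library was 6.96%. Thinned to 5000 UMIs, 1.599%, 0.151% and 2.51% passed, monocyte-like cells were 26.7% of members of the Gsdmd∆Hep IR library, and 1.57% of them passed. In the T-like comparison, genes at least 2-fold higher and lower were 151 and 117 with TMM, 26 and 72 with at least 100 UMIs a gene, and 220 and 622 with at least 10. Of 900 alternative values for single genes, 3 turned round: H1f4 to -0.066 and H1f5 to -0.205 (log2) without the largest member of each library, and Jund to 0.0887 with the mean of per-cell CPM. The cause was not tested. No paired analysis was possible because each group is 1 library and no result comes from a test, and no replicate could be left out. The planned gene comparisons of the GsdmdFL/FL IR library with either other library could not be made, and their alternatives were not run.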

Other observations

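Outside the rule, 44 barcodes of the Gsdmd∆Hep IR library, 6 of the GsdmdFL/FL IR library and 59 of the GsdmdFL/FL Ctrl library had at least 3 UMIs of the 4 genes but also Stab2 or Ptprb. Of these, 43, 6 and 45 also had a UMI of Ptprc or Tyrobp, and of the 44, 6 and 59, 29, 2 and 24 had exactly 1 UMI of Stab2 and Ptprb together. With 1 such UMI allowed, 4.54%, 0.351% and 2.17% of leukocyte barcodes passed in the same order.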
